A study of Mus musculus with 10 samples.

Results

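Transcripts of 10 genes that regulate growth arrest and apoptosis were followed in the hippocampus of mice during epileptogenesis after pilocarpine (PILO)-induced status epilepticus (SE). The 10 genes, *Cdkn1a*, *Gadd45a*, *Gadd45b*, *Gadd45g*, *Mdm2*, *Bbc3*, *Bcl2l11*, *Bax*, *Bcl2* and *Mcl1*, were taken by symbol from the 15900 genes of the table, and each symbol occurred in 1 row. Levels were measured by cap analysis of gene expression (CAGE), which sequences short tags from the capped 5′ ends of RNA, and are given as CPM, the count of tags of a gene scaled to a common library total. Whole hippocampi of 10 male ICR mice were used, and each of the 5 groups held 2 of them. Pre-SE mice were labelled as untreated, and the paper calls them control or naive mice. Its methods describe control mice as given saline in place of PILO. SE 6 h and SE 2 days mice were given methyl scopolamine and, at 9 to 10 weeks of age, 290 mg/kg PILO, their SE was ended with diazepam, and they were sampled at these times after SE. SE + LEV 6 h and SE + LEV 2 days mice went through the same procedure and also received 360 mg/kg levetiracetam (LEV), an antiepileptic drug that binds the synaptic vesicle protein SV2A, by mouth soon after diazepam and then 2 times a day, which made 1 dose before 6 h and 5 doses before 2 days. All post-SE mice therefore shared PILO, methyl scopolamine and diazepam, and pre-SE mice do not separate the effect of these agents from that of the seizures. The libraries held 10540698 to 51710968 tags (median 26671413), and the smallest level taken as detected, 3 tags, corresponded to 0.058 to 0.285 CPM. All 10 genes were above the filter on low values that was used for the tests.

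The genes belong to connected circuits of the stress response. The transcription factor p53, encoded by *Trp53*, is held at a low level by the ubiquitin ligase MDM2, and in stressed cells it activates genes that halt the cell cycle, such as *Cdkn1a* and *Gadd45a*, and genes that favour cell death, such as *Bbc3* and *Bax*. Several of these genes, the GADD45 family above all, are also induced by neuronal activity, cytokines and other stresses without p53. Whether a cell enters apoptosis depends on the balance between BH3-only proteins (the products of *Bbc3* and *Bcl2l11*), the pore-forming effector BAX, and the proteins BCL2 and MCL1, which restrain them.

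The promoters of the 5 genes that changed after SE are shown because CAGE tags mark transcription start sites and because these genes moved together. The sequences are from RefSeq (GRCm38.p6), which held windows for 10 of 10 genes (14 windows), and are the 150 bases before a RefSeq start site, written along the strand of the gene. Capitals mark matches of the motifs searched over 250 bases before the start on both strands. These were the TATA box (TATAAA), the CCAAT box (CCAAT), the AP-1 site (TGANTCA), the cyclic AMP response element (TGACGTCA), the E-box (CACGTG), and the p53 half-site, the kappaB site and the CArG box by their consensus. *Cdkn1a* has 2 windows, chr17:29090829-29090978 and chr17:29093619-29093768 on the plus strand. *Gadd45a* is at chr6:67037408-67037557 on the minus strand. *Gadd45b* (chr10:80929941-80930090), *Gadd45g* (chr13:51846525-51846674) and *Mcl1* (chr3:95658571-95658720) are on the plus strand.
Cdkn1a, window 1: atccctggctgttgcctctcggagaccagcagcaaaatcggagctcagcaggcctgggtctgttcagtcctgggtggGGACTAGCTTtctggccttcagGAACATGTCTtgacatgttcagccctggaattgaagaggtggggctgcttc
Cdkn1a, window 2: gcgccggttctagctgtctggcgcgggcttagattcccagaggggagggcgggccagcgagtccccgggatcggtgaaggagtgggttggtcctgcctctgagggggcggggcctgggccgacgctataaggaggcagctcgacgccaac
Gadd45a: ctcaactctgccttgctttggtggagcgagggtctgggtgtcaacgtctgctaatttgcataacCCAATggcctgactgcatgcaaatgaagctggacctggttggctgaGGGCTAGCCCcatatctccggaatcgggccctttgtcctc
Gadd45b: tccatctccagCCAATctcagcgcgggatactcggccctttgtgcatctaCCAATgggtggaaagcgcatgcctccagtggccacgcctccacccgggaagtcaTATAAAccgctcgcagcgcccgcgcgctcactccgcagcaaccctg
Gadd45g: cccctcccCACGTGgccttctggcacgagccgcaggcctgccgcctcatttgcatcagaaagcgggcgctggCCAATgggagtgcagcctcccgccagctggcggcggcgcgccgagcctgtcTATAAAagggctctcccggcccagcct
Mcl1: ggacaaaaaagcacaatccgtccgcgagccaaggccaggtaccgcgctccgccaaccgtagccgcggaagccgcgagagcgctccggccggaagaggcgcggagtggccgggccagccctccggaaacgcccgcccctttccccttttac

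The first *Cdkn1a* window held p53 half-sites from positions -73 and -51 relative to the start, and *Gadd45a* held 1 from position -40, whereas 7.13% of all 32851 RefSeq windows held such a site. *Mdm2* and *Bax* held a p53 half-site farther upstream, from positions -186 and -201. TATA boxes began at position -46 (*Gadd45b*) and -27 (*Gadd45g*), against 12.4% of all windows with one. Of the 5 genes shown, *Gadd45a*, *Gadd45b* and *Gadd45g* held a CCAAT box (33.8% of all windows), and *Gadd45b* and *Gadd45g* an E-box, from positions -185 and -142 (6.02%). None of the 14 windows held an AP-1 site (6.75% of all windows), a cyclic AMP response element (1.55%) or a CArG box (1.47%) in these letters. The kappaB site (3.9% of all windows) was found in 1 window of *Bbc3*, and none of these motifs was in the windows of *Mcl1* and *Bcl2*. These matches describe the sequence and were not tested for binding.

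After SE, 5 of the 10 genes rose and the other 5 did not pass the test against pre-SE. *Gadd45g*, *Gadd45b*, *Cdkn1a*, *Mcl1* and *Gadd45a* were higher at 6 h than pre-SE, by 4.13-fold (*Gadd45a*) to 28.7-fold (*Gadd45g*) in the ratio of mean CPM. The same 5 genes were higher at 2 days than pre-SE, by 2.24-fold (*Gadd45a*) to 9.09-fold (*Cdkn1a*). The test was limma on log2(CPM + 0.1) over 15851 genes, and genes with a Benjamini-Hochberg adjusted p of at most 0.05 were called. Of all genes tested, 2.76% were called higher and 0.202% lower at 6 h, and 5.07% and 0.593% at 2 days. No member was called lower at either time by limma, edgeR or DESeq2, and at an unadjusted p under 0.05 none was lower at 6 h and 1, *Bbc3*, at 2 days. Over all 15851 genes, 1349 were lower at the unadjusted threshold at 6 h and 1155 at 2 days. Both SE mice lay above both pre-SE mice for 6 of the 10 genes at 6 h (18.6% of all genes) and for 6 at 2 days (26.3%), and below them for 1 gene at 6 h (31.3%) and 1 at 2 days (25.6%). Over the 10 genes, the median logFC was 1.36 (6 h) and 0.83 (2 days), where the median of all genes was -0.13 and -0.03.

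**Figure D1:**
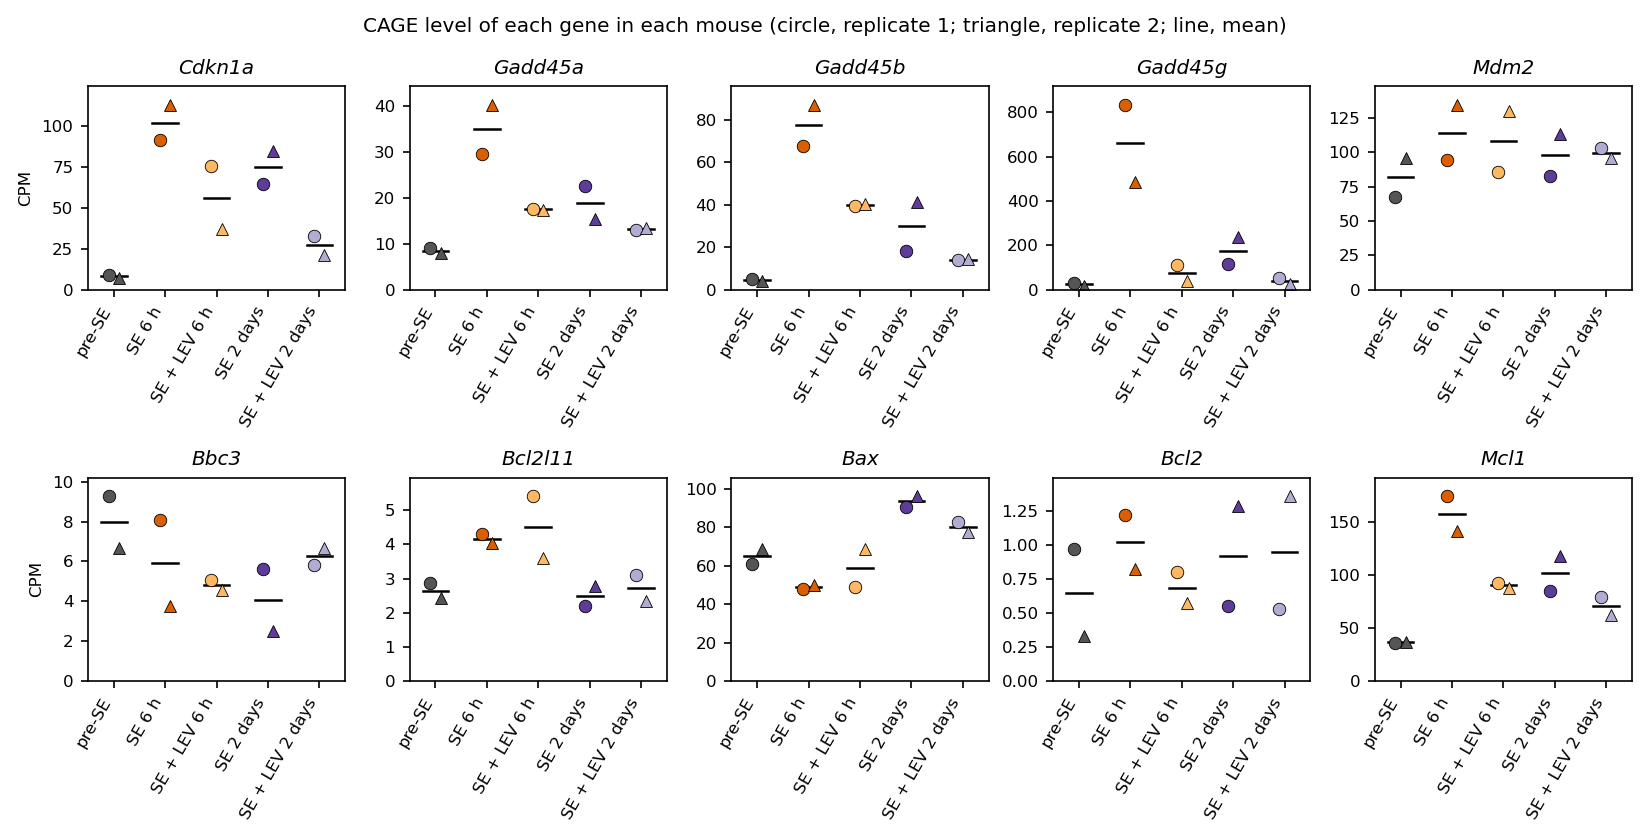
CPM of each of the 10 genes (y axes from 0, a separate scale for each gene) in the 2 mice of each of the 5 groups (x axes); circles are replicate 1, triangles replicate 2 and lines the mean. *Cdkn1a*, the GADD45 genes and *Mcl1* have their highest mean in SE 6 h mice and their lowest in pre-SE mice, whereas *Bax* is lowest in SE 6 h mice and highest in SE 2 days mice.

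*Cdkn1a* encodes p21, an inhibitor of cyclin-dependent kinases that stops the cell cycle (chr17:29227924-29237667, plus strand of mm9, the build of the tags). Its level was 9.14 and 7.33 CPM in pre-SE mice, 91.5 and 113 CPM at 6 h after SE and 64.7 and 85.0 CPM at 2 days. With LEV it was 75.3 and 36.9 CPM at 6 h and 33.0 and 21.2 CPM at 2 days. Every mouse after SE, with or without LEV, was above both pre-SE mice. Against pre-SE, the logFC on the log2(CPM + 0.1) scale was 3.62 at 6 h (standard error 0.36, adjusted p = 0.0023) and 3.16 at 2 days (standard error 0.36, adjusted p = 0.0014), and both calls held in 22 of 22 alternative analyses. The difference between SE 2 days and SE 6 h did not pass the test (logFC -0.46, 95% interval -1.25 to 0.34, adjusted p = 0.51), although both SE 2 days mice were below both SE 6 h mice.

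The GADD45 proteins are small stress sensors that bind p21, PCNA and the kinase MAP3K4 and, in the brain, take part in activity-dependent DNA demethylation. *Gadd45g* (chr13:51942047-51943837, plus strand) showed the largest logFC of the 10 genes at 6 h. The pre-SE mice had 27.8 and 18.1 CPM, the SE 6 h mice 835 and 483 CPM and the SE 2 days mice 116 and 237 CPM. In SE + LEV mice it was 109 and 39.8 CPM at 6 h and 53.2 and 26.8 CPM at 2 days. The lower of the SE + LEV 2 days mice thus lay within the pre-SE range, while the other post-SE mice were above it. The logFC against pre-SE was 4.81 at 6 h (standard error 0.54, adjusted p = 0.0023) and 2.87 at 2 days (standard error 0.54, adjusted p = 0.012). The call at 2 days was lost without pre-SE replicate 2 (logFC 2.57, adjusted p = 0.076) and without SE 2 days replicate 2 (logFC 2.36, adjusted p = 0.14). Between 6 h and 2 days the logFC was -1.94 (adjusted p = 0.077), which passed the threshold with DESeq2 (adjusted p = 0.0053) and edgeR's exact test (adjusted p = 0.0012) on tag counts, but not with edgeR's quasi-likelihood test (adjusted p = 0.1).

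*Gadd45b* (chr10:80392836-80394949, plus strand) was at 5.14 and 4.0 CPM in pre-SE mice, 67.9 and 87.3 CPM at 6 h after SE and 18.4 and 41.5 CPM at 2 days. In SE + LEV mice it was 39.5 and 40.3 CPM at 6 h and 13.8 and 14.5 CPM at 2 days. All 8 post-SE mice were above both pre-SE mice, and the SE 2 days mice were below the SE 6 h mice. The logFC against pre-SE was 4.06 at 6 h (standard error 0.36, adjusted p = 0.0014) and 2.58 at 2 days (standard error 0.36, adjusted p = 0.003). From 6 h to 2 days *Gadd45b* fell, with a logFC of -1.48 (standard error 0.36, adjusted p = 0.048). This call was at the threshold and held in 9 of 22 alternatives. It was lost without either pre-SE, SE 6 h or SE + LEV 6 h mouse and without SE 2 days replicate 1, at adjusted p values of 0.061 to 0.24, and without the last of these mice the logFC was -0.89.

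*Gadd45a* (chr6:66985090-66987451, minus strand), the p53 target of the family, had the smallest logFC of the 5 genes that rose. It was 8.97 and 7.93 CPM in pre-SE mice, 29.6 and 40.2 CPM at 6 h after SE and 22.6 and 15.3 CPM at 2 days. With LEV it was 17.5 and 17.3 CPM at 6 h and 13.0 and 13.4 CPM at 2 days. The post-SE mice were all above the pre-SE mice, and the groups kept the order SE 6 h, SE 2 days, SE + LEV 6 h, SE + LEV 2 days, with overlap between SE 2 days and SE + LEV 6 h mice. The logFC against pre-SE was 2.02 at 6 h (standard error 0.28, adjusted p = 0.0054), with an adjusted p of 0.059 and a logFC of 1.80 without SE 6 h replicate 2. At 2 days it was 1.13 (standard error 0.28, adjusted p = 0.046). The latter call held in 9 of 22 alternatives and was lost without any 1 of the pre-SE, SE 6 h, SE + LEV 6 h or SE 2 days mice (adjusted p of 0.055 to 0.19). In the annotation *Gadd45a* overlaps the long noncoding RNA gene E230016M11Rik on the other strand, and whether genes were counted by strand is not given in the sources used here.

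*Mdm2* (chr10:117125944-117147814, minus strand), the negative regulator of p53 and itself a p53 target, gave no call in any comparison. Its level was 67.3 and 96.1 CPM in pre-SE mice, and the 8 post-SE mice lay between 83.1 and 135 CPM. The groups overlapped in every comparison. Against pre-SE the logFC was 0.49 at 6 h (95% interval -0.18 to 1.15, adjusted p = 0.42) and 0.27 at 2 days (95% interval -0.39 to 0.93, adjusted p = 0.69).

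The BH3-only genes were measured at low levels. *Bbc3* (chr7:16894965-16903554, plus strand) encodes PUMA, the BH3-only protein through which p53 triggers apoptosis, and was 9.28 and 6.67 CPM in pre-SE mice, 8.08 and 3.77 CPM at 6 h after SE and 5.6 and 2.53 CPM at 2 days. Both SE 2 days mice were below both pre-SE mice, but the difference did not pass the test (logFC -1.04, 95% interval -2.07 to -0.01, adjusted p = 0.25). *Bcl2l11* (chr2:127951774-127988283, plus strand) encodes BIM, a BH3-only protein induced when trophic support is withdrawn, and was 2.86 and 2.42 CPM in pre-SE mice, 4.3 and 4.04 CPM at 6 h after SE and 2.2 and 2.77 CPM at 2 days. At 6 h both SE mice were above both pre-SE mice, with a logFC of 0.64 (95% interval -0.15 to 1.44, adjusted p = 0.37). The SE 2 days mice overlapped the pre-SE mice.

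*Bax* encodes the effector that permeabilizes the outer mitochondrial membrane (chr7:52717065-52722268, minus strand), and its mean was lowest at 6 h and highest at 2 days. It was 60.8 and 69.0 CPM in pre-SE mice, 48.1 and 50.1 CPM at 6 h after SE and 90.9 and 96.3 CPM at 2 days. The SE 6 h mice were below and the SE 2 days mice above both pre-SE mice, neither of which passed the test (logFC -0.40, adjusted p = 0.38, and 0.53, adjusted p = 0.22). From 6 h to 2 days *Bax* rose, with a logFC of 0.93 (standard error 0.22, 95% interval 0.43 to 1.43, adjusted p = 0.047). The call held in 9 of 22 alternatives, and without any 1 of the pre-SE, SE 6 h or SE 2 days mice it was lost (adjusted p of 0.07 to 0.2, logFC 0.89 to 0.97). The summed level of the 6 microglia markers was 362 and 431 CPM in pre-SE mice, 285 and 264 CPM at 6 h after SE and 844 and 996 CPM at 2 days, 5 of the 6 were called higher at 2 days than at 6 h, and none was at 0. In SE + LEV 2 days mice it was 1140 and 901 CPM, with 4 of the 6 above both SE 2 days mice, whereas *Bax* was below both. The 6 astrocyte markers summed to 2140 and 2590 CPM at 6 h after SE and 3510 and 4940 CPM at 2 days, and 2 of them were called higher. They did not move as a set: both SE 2 days mice were above both SE 6 h mice for 2 markers and below them for 3 (median logFC 0.05). The part of these cells in the *Bax* values was not tested, and in whole tissue more cells of a type and more RNA per cell cannot be told apart.

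*Bcl2* and *Mcl1* encode proteins that restrain apoptosis, and *Mcl1* was called after SE while *Bcl2* was not; the difference between the 2 genes was not tested. *Bcl2* (chr1:108434755-108610851, minus strand) was near the limit of detection, between 0.33 and 1.36 CPM (6 to 38 tags) in all 10 mice, the groups overlapped in every comparison except SE + LEV 6 h with SE 6 h, and it gave no call (SE 6 h against pre-SE logFC 0.70, 95% interval -0.66 to 2.06, adjusted p = 0.58). *Mcl1* (chr3:95462643-95467099, plus strand), whose short-lived product is needed for the survival of neurons, was 35.8 and 37.3 CPM in pre-SE mice, 175 and 142 CPM at 6 h after SE and 85.0 and 118 CPM at 2 days. With LEV it was 93.0 and 87.8 CPM at 6 h and 79.6 and 62.6 CPM at 2 days. All post-SE mice were above the pre-SE mice, and the 2 SE 6 h mice were above all others. The logFC against pre-SE was 2.10 at 6 h (standard error 0.24, adjusted p = 0.0023) and 1.45 at 2 days (standard error 0.24, adjusted p = 0.0063). The call at 2 days was lost without pre-SE replicate 1 (logFC 1.42, adjusted p = 0.053) and without SE 2 days replicate 2 (logFC 1.21, adjusted p = 0.077).

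**Figure D2:**
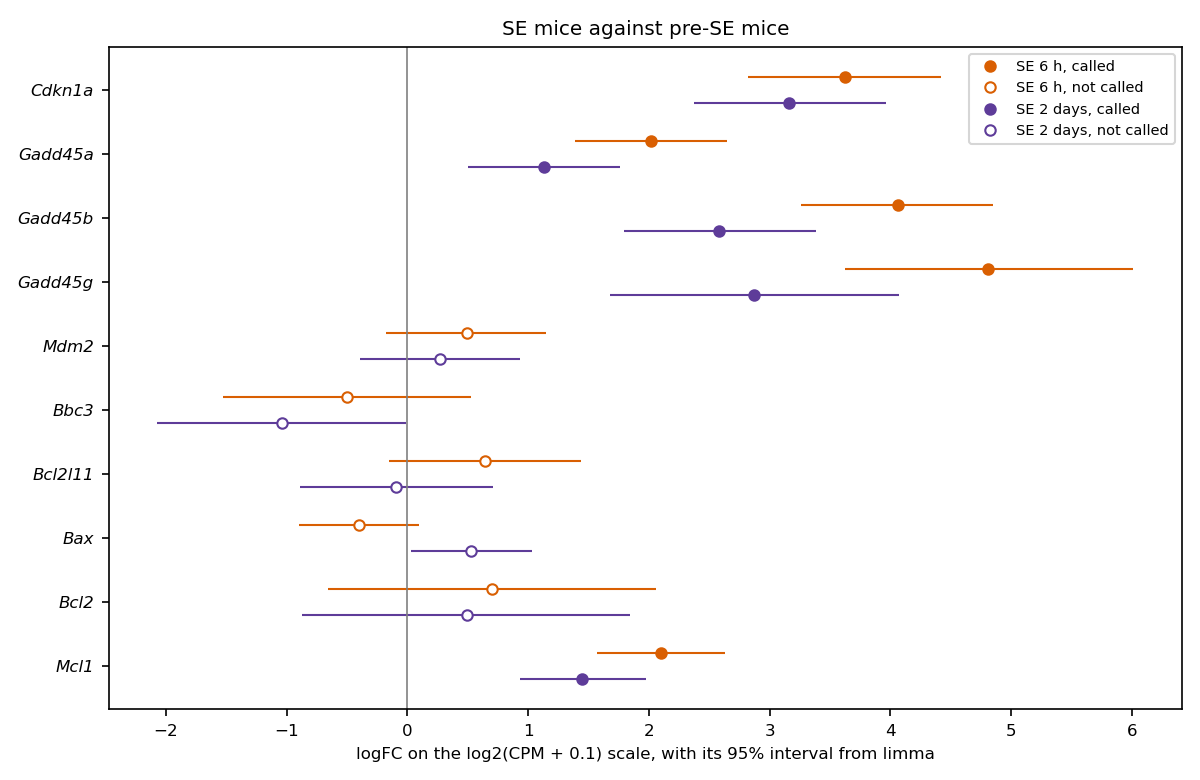
logFC of each gene (y axis) in SE 6 h and SE 2 days mice against the same 2 pre-SE mice, on the log2(CPM + 0.1) scale (x axis); points are estimates, filled where called, and bars the 95% interval from limma. *Cdkn1a*, the GADD45 genes and *Mcl1* lie right of 0 at both times, and the intervals of *Mdm2*, *Bcl2l11* and *Bcl2* include 0 at both.

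Between SE 6 h and SE 2 days, 9 of the 10 estimates were lower at 2 days, with a median logFC of -0.59 where that of all genes was 0.09. *Bax* was the 1 gene called higher (3.14% of all genes) and *Gadd45b* the 1 called lower (1.11%). Both SE 2 days mice were below both SE 6 h mice for 6 of the 10 genes (20.1% of all genes) and above them for 1 (31%). The 6 genes were *Cdkn1a*, *Gadd45a*, *Gadd45b*, *Gadd45g*, *Bcl2l11* and *Mcl1*.

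**Figure D3:**
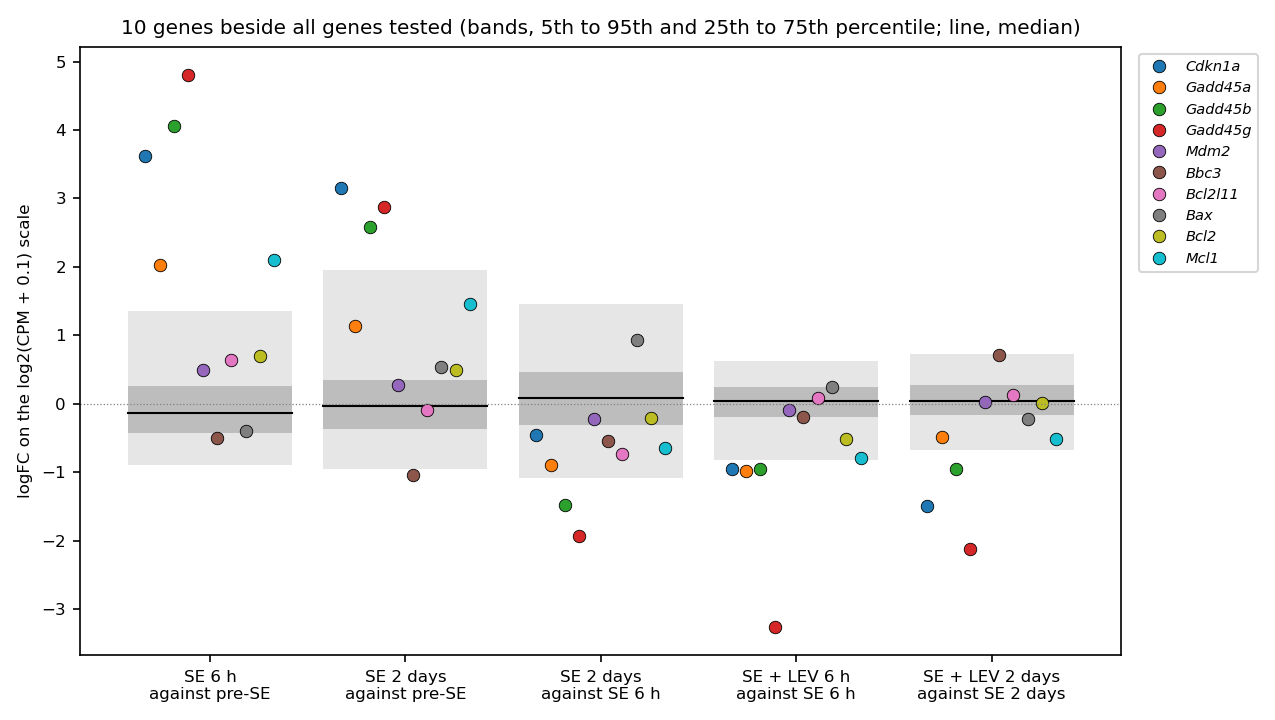
logFC on the log2(CPM + 0.1) scale (y axis) of the 10 genes (points) in 5 comparisons (x axis); light bands run from the 5th to the 95th and dark bands from the 25th to the 75th percentile of the 15851 genes tested, and lines are their medians. At 6 h after SE, 5 of the 10 genes lie above the light band, and with LEV at 6 h *Gadd45g* lies at -3.27, the lowest of the 10.

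The comparison of SE + LEV with SE mice asked whether LEV changed the levels reached after SE. At 6 h, both SE + LEV mice were below both SE mice for 6 of the 10 genes (13.4% of all genes) and above them for none (16.1%). The 6 genes were *Cdkn1a*, the 3 GADD45 genes, *Mcl1* and *Bcl2*. At 2 days they were below for 6 genes (12.2%) and above for 1, *Bbc3* (15.2%). The 6 genes were *Cdkn1a*, the 3 GADD45 genes, *Mcl1* and *Bax*. None of the 10 genes was called in limma at 6 h, where 0% of all genes were called higher and 0.0126% lower, nor at 2 days, where 0% were called in either direction. At an unadjusted p under 0.05, 5 genes were lower at 6 h and 3 at 2 days, and none was higher. Over all genes tested, 542 were lower and 184 higher at this threshold at 6 h, and 220 lower and 208 higher at 2 days. DESeq2 and edgeR's exact test each called 1 gene lower at 6 h, *Gadd45g*, and none at 2 days, and edgeR's quasi-likelihood test called none. Over all genes at 6 h, DESeq2 called 69 lower and 6 higher, and edgeR's exact test 118 lower and 6 higher. At 2 days the all-gene counts were 4 lower and 0 higher with DESeq2, and 10 lower and 2 higher with edgeR's exact test.

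*Gadd45g* had the largest difference with LEV. Its mean was 8.85-fold lower in SE + LEV 6 h than in SE 6 h mice (logFC -3.27, 95% interval -4.46 to -2.07, adjusted p = 0.11 in limma, 4e-06 in DESeq2, 4e-05 in edgeR's exact test and 0.28 in edgeR's quasi-likelihood test). This logFC ran from -3.99 without SE + LEV 6 h replicate 1 to -2.54 without replicate 2 of that group. At 2 days it was 4.41-fold lower (logFC -2.13, 95% interval -3.32 to -0.93, adjusted p = 1.0 in limma). *Cdkn1a* was 1.82-fold lower at 6 h (logFC -0.95, 95% interval -1.75 to -0.15) and 2.76-fold lower at 2 days (logFC -1.49, 95% interval -2.28 to -0.69). The *Cdkn1a* value at 6 h rested on 2 SE + LEV mice that were themselves far apart, at 75.3 and 36.9 CPM, and ran from -1.46 without replicate 1 of that group to -0.43 without replicate 2. *Gadd45b* had a logFC of -0.95 at 6 h and -0.96 at 2 days. *Gadd45a* (logFC -0.98) and *Mcl1* (logFC -0.80) had 95% intervals below 0 at 6 h, and intervals that included 0 at 2 days (-1.12 to 0.14 and -1.04 to 0.02). The adjusted p of all these genes except *Gadd45g* was between 0.64 and 1.0 in limma. Among the other genes, *Bax* was 48.8 and 69.0 CPM in SE + LEV 6 h mice and 82.7 and 77.5 CPM in SE + LEV 2 days mice, which at 2 days was below both SE mice. *Bbc3* was 5.08 and 4.55 CPM with LEV at 6 h and 5.83 and 6.69 CPM at 2 days, and *Bcl2l11* 5.42 and 3.61 CPM and then 3.11 and 2.34 CPM. The intervals of *Mdm2* with LEV ran from -0.75 to 0.57 at 6 h and from -0.63 to 0.69 at 2 days, and those of *Bax* from -0.26 to 0.74 and from -0.72 to 0.27. The LEV effect itself was compared between the times. None of the 10 genes passed the test in limma (0% of all genes called), DESeq2 or edgeR's quasi-likelihood test. At an unadjusted p under 0.05 in limma none of the 10 passed either, where 377 of all genes did.

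**Figure D4:**
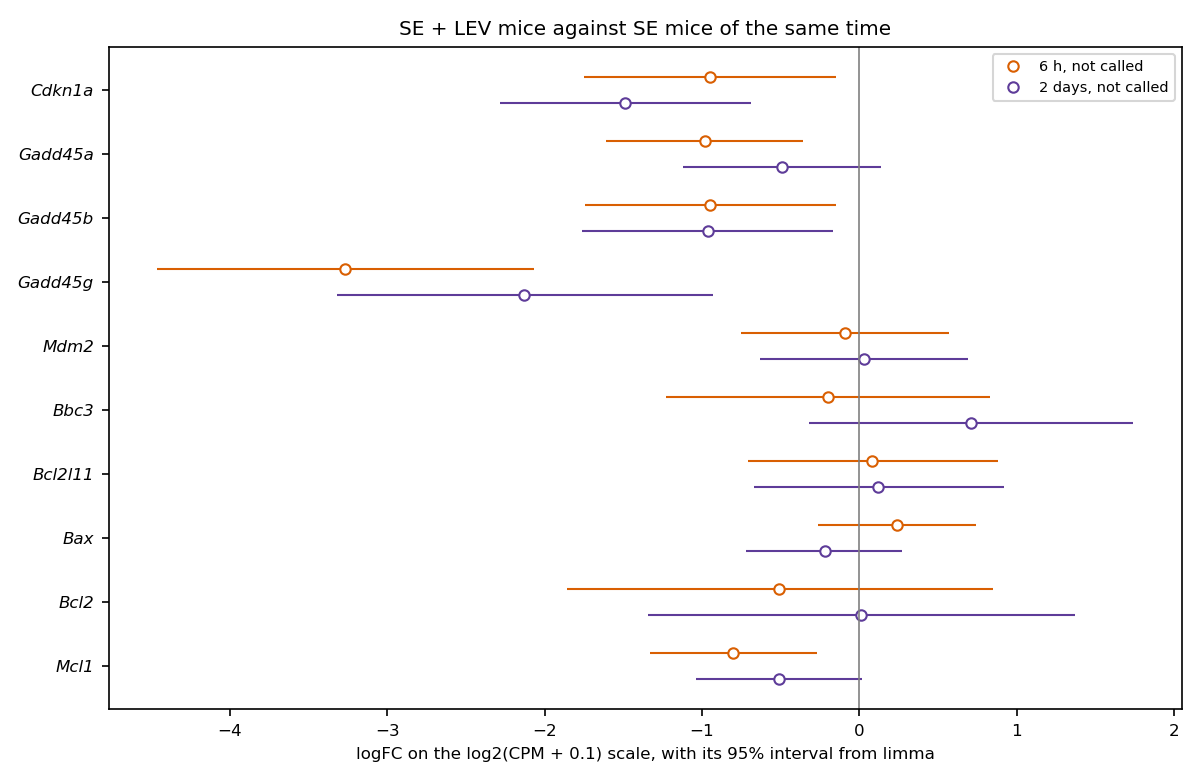
logFC of each gene (y axis) in SE + LEV mice against SE mice of the same time, on the log2(CPM + 0.1) scale (x axis), with 95% intervals from limma; open points are not called. The intervals of *Cdkn1a*, *Gadd45b* and *Gadd45g* lie below 0 at both times, and those of *Gadd45a* and *Mcl1* at 6 h alone.

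Against pre-SE, which is the same pair of mice as above, 2 genes were called in LEV-treated mice at each time, *Cdkn1a* and *Gadd45b*. In SE + LEV 6 h mice, where 0.315% of all genes were called higher and 0.00631% lower, their logFC was 2.67 (adjusted p = 0.019) and 3.11 (adjusted p = 0.009). In SE + LEV 2 days mice, where 2.83% were called higher and 0.0189% lower, it was 1.68 (adjusted p = 0.035) and 1.62 (adjusted p = 0.04). At 6 h the *Cdkn1a* call was lost without either pre-SE mouse or SE + LEV 6 h replicate 1 (adjusted p of 0.078 to 0.12), and the *Gadd45b* call without any 1 of the pre-SE or SE + LEV 6 h mice (0.061 to 0.097). At 2 days the *Cdkn1a* call was lost without any 1 of the pre-SE, SE 6 h or SE 2 days mice or SE + LEV 2 days replicate 1 (0.055 to 0.31), and the *Gadd45b* call without any 1 of the pre-SE, SE 6 h, SE + LEV 6 h or SE + LEV 2 days mice (0.062 to 0.23). *Mcl1* was not called (logFC 1.3, adjusted p = 0.061 at 6 h, and 0.95, adjusted p = 0.074 at 2 days), nor were *Gadd45a* (1.03, adjusted p = 0.22, and 0.64, adjusted p = 0.45) and *Gadd45g* (1.55, adjusted p = 0.37, and 0.75, adjusted p = 0.77). DESeq2 and edgeR's exact test called these 3 genes at 6 h, and *Mcl1* was also called by DESeq2 at 2 days and at 6 h without SE + LEV 2 days replicate 2 (adjusted p = 0.05). Over all 15851 genes, DESeq2 called 354 higher and edgeR's exact test 423 in SE + LEV 6 h mice, and DESeq2 called 792 higher in SE + LEV 2 days mice. No member was called lower in LEV-treated mice against pre-SE by any of these tools, or was lower at an unadjusted p under 0.05. At that unadjusted threshold in limma, 611 of all genes were lower at 6 h and 303 at 2 days.

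Of the 96 other genes of these pathways, limma called 9 at 6 h and 15 at 2 days against pre-SE, all of them higher. Among all genes tested, limma called 2.76% higher and 0.202% lower at 6 h, and 5.07% and 0.593% at 2 days. Most limma calls over all genes were thus also higher, 93.2% of them at 6 h and 89.5% at 2 days. DESeq2 called 20 higher and 0 lower at 6 h and 24 higher and 2 lower at 2 days, and edgeR's exact test 21 higher and 0 lower and then 24 higher and 4 lower. Over all 15851 genes, DESeq2 called 1008 higher and 99 lower at 6 h, and 1260 higher and 347 lower at 2 days. With edgeR's exact test these all-gene counts were 961 and 111 and then 1354 and 375. The counts by list that follow are those of limma. Of 24 tested genes of the p53 pathway, 3 were higher at 6 h and 2 at 2 days than pre-SE, with a median logFC of 0.15 and 0.25. The antiproliferative gene *Btg2* rose at both times (logFC 2.88 and 2.69), as did the death receptor gene *Fas* (2.38 and 1.91), and the BH3-only gene *Pmaip1* (NOXA) rose at 6 h (2.14) and then fell between 6 h and 2 days (-1.80, adjusted p = 0.049). This fall was not called by edgeR's quasi-likelihood test, and its adjusted p ran from 0.00025 to 0.26 over the alternatives. *Btg2* was 9.69 and 13.0 CPM in pre-SE mice and 80.6 and 85.9 CPM in SE 6 h mice. In SE + LEV 6 h mice it was 21.7 and 21.0 CPM. Of 15 other BCL2 family genes, 2 were higher at 6 h and 3 at 2 days, including the antiapoptotic genes *Bcl2a1b* (3.66 at 6 h and 5.81 at 2 days), *Bcl2a1a* (5.76 at 2 days) and *Bcl2a1d* (5.05 at 2 days). In pre-SE mice *Bcl2a1b* and *Bcl2a1d* both had 0.14 and 0.68 CPM, and *Bcl2a1a* 0.07 and 0.12 CPM. The limit of 3 tags was 0.1035 CPM in pre-SE replicate 1, and the size of these logFC depends on the added 0.1 CPM. These paralogs are nearly identical, so that their tags may have been split between them, and they are expressed in leukocytes and microglia.

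Of 17 genes of the apoptosome, caspases and their inhibitors, none was called at 6 h by limma, and DESeq2 and edgeR's exact test each called 1 higher. Without adjustment 1 was up and 1 down at p under 0.05 in limma, where 1460 of all genes were up and 1349 down. At 2 days 2 were higher, the mitotic inhibitor of apoptosis *Birc5* (logFC 4.14) and the initiator caspase *Casp8* (2.38). Cyclins and their kinases drive the cell cycle that p21 stops. Of 13 tested cyclins, cyclin-dependent kinases and PCNA, 2 were higher at 6 h, *Cdk6* (2.36) and the replication clamp *Pcna* (1.45, adjusted p = 0.048), and 3 at 2 days, the mitotic kinase *Cdk1* (4.16), cyclin A2 *Ccna2* (4.13) and *Cdk6* (1.85). *Cdk1* was 0.34 and 0.64 CPM in pre-SE mice, 0.35 and 0.41 CPM at 6 h after SE and 9.03 and 11.3 CPM at 2 days. Among 4 other CDK inhibitors, *Cdkn3*, which encodes a phosphatase of cyclin-dependent kinases, was higher at 2 days (3.19).

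Of 11 kinases of the GADD45 stress pathway, 1 was higher at 6 h, *Map3k5*, which encodes the stress kinase ASK1. It was 16.1 and 10.6 CPM in pre-SE mice, 89.7 and 128 CPM at 6 h after SE and 8.69 and 7.07 CPM at 2 days. Its logFC was 3.03 at 6 h against pre-SE and -3.76 at 2 days against 6 h (adjusted p = 0.002). *Map3k4*, which GADD45 proteins bind, is in the same list and was not called. Of 13 upstream regulators, 2 were higher at 6 h, *Myc* (3.82) and the AP-1 subunit *Jun* (2.43), and 4 at 2 days, *Myc* (3.40), *Tgfb1* (2.33), *Stat3* (2.18) and *Jun* (1.6). Of these calls against pre-SE, those of *Map3k5*, *Myc* and *Jun* at 6 h and of the *Bcl2a1* genes, *Birc5*, *Cdk1*, *Ccna2*, *Myc* and *Tgfb1* at 2 days held in every alternative that gave an adjusted p, and each of the others was lost in at least 1. Of the 96 pathway genes in all, limma called none between SE + LEV and SE mice at either time. Without adjustment, 8 of them had a p under 0.05 at 6 h (2 up, 6 down) and 4 at 2 days (0 up, 4 down). Over all genes tested, 726 had such a p at 6 h (184 up, 542 down) and 428 at 2 days (208 up, 220 down). DESeq2 called *Btg2* and *Map3k5* lower at 6 h and *Btg2* lower at 2 days, edgeR's exact test called 2 lower at 6 h, and edgeR's quasi-likelihood test called none. Over all genes, DESeq2 called 69 lower and 6 higher at 6 h, and 4 lower and 0 higher at 2 days. With edgeR's exact test, 118 of all genes were called lower and 6 higher at 6 h.

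**Figure D5:**
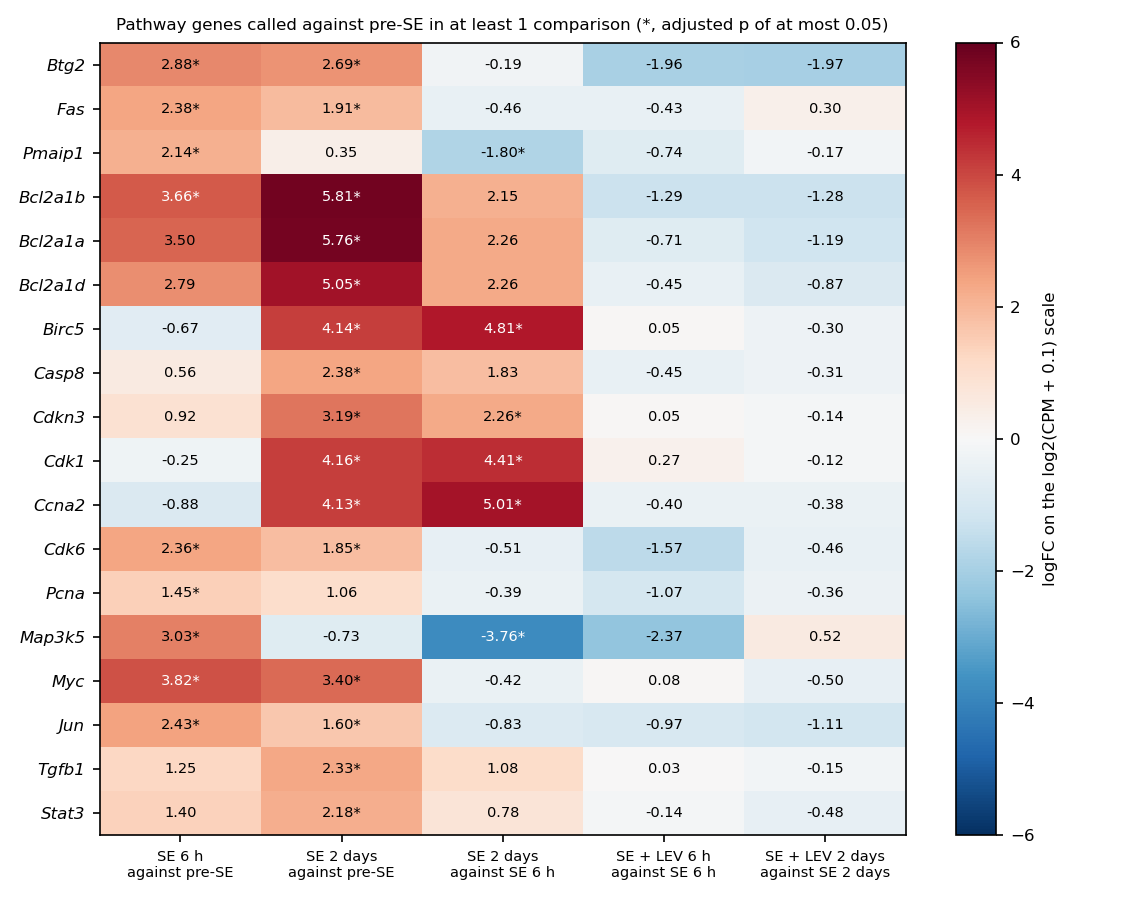
logFC on the log2(CPM + 0.1) scale (colour and number) of the pathway genes called against pre-SE in at least 1 comparison (rows) in 5 comparisons (columns); asterisks mark an adjusted p of at most 0.05 in limma. Against pre-SE, *Btg2*, *Fas*, *Bcl2a1b*, *Cdk6*, *Myc* and *Jun* carry asterisks at 6 h and 2 days, and *Pmaip1*, *Pcna* and *Map3k5* at 6 h alone. The other genes shown carry them at 2 days alone, among them *Birc5*, *Cdk1* and *Ccna2*. For SE 2 days against SE 6 h, *Pmaip1*, *Birc5*, *Cdkn3*, *Cdk1*, *Ccna2* and *Map3k5* carry asterisks.

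Markers of neurons, astrocytes, oligodendrocytes, microglia and endothelial cells were detected in every group, and 3 of 7 leukocyte markers (*Ccr2*, *Ly6c2* and *Cd3e*) were not among the 15900 genes listed. Between pre-SE and SE 2 days mice, the summed level of the 4 leukocyte markers was 7.7 and 6.6 against 46.0 and 81.6 CPM, that of the 6 astrocyte markers 2440 and 2300 against 3510 and 4940 CPM, that of the 8 neuron markers 6890 and 5560 against 4430 and 3970 CPM, and that of the 6 oligodendrocyte markers 4520 and 5060 against 1670 and 2490 CPM. Marker by marker, 3 of the astrocyte list lay above the pre-SE range at 2 days and 3 below it (median logFC 0.23, 2 called higher). Only 2 of the 8 neuron markers lay below that range and 0 above it (median logFC -0.26, none called). These 2 sums therefore do not stand for a change of all their markers. In the leukocyte list, 2 of 4 lay above the range (median logFC 2.1, 2 called higher). Of the oligodendrocyte markers, 5 were below both pre-SE mice (median logFC -1.16, none called). In SE + LEV 2 days mice they summed to 2990 and 4390 CPM, and 5 of the 6 were above both SE 2 days mice (median logFC 0.85, none called). At 6 h the summed endothelial markers were 115 and 178 CPM against 60.1 and 67.6 CPM pre-SE, whereas the summed neuron markers overlapped. Of the 6 endothelial markers, 5 lay above the pre-SE range at 6 h and 1 below it (1 called higher). Of the 8 neuron markers, 1 lay above that range and 3 below it (median logFC -0.1, none called). Of the 6 microglia markers, 0 lay above it and 5 below it (median logFC -0.79, 2 called lower). The part of these marker differences in the levels of the 10 genes was not tested.

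The genes with the most similar response were found by the root mean squared difference of the 4 logFC against pre-SE, which share the pre-SE mice. For *Cdkn1a* they were *Trib1* (difference 0.23), *Acan* (0.31) and *Osm* (0.34). For *Gadd45g* they were the activity-regulated gene *Arc* (0.42), *Thbs1* (0.57) and *Ccl11* (0.59), and for *Gadd45b* they were *Gpr3* (0.27), *Gprc5a* (0.36) and *Tll1* (0.37). Those of *Gadd45a* were U5 (0.07), *Bves* (0.14) and *Zswim4* (0.14), and those of *Mcl1* were A530013C23Rik (0.09), *Igsf9b* (0.11) and *Adcy4* (0.13).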

How the data were processed

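CAGE libraries of whole hippocampi from 10 mice were analysed, 2 mice in each of 5 groups that were taken from the labels. The authors mapped tags to mm9 with BWA 0.7.17 and HISAT2 2.0.5, grouped tags into clusters by RECLU, kept those of at least 0.1 CPM, and deposited gene-level CPM for each library. The step from clusters to genes is not given in the sources used here. A search over library totals found, for each of the 10 libraries, a total at which all CPM values were whole multiples of 1 tag within rounding (0.00501 CPM). The steps of 1 tag could be read from the low values directly in 3 libraries. In the other 7 the rounding to 2 decimals hides them, and their totals rest on the search alone. Depths, tag counts and the edgeR and DESeq2 results depend on these totals, and limma does not. Columns of other samples were not found (0 columns).

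limma 3.58.1 (R 4.3.3) was fitted to log2(CPM + 0.1) of all 10 libraries with 5 group means and a mean-variance trend, two-sided, and p-values were adjusted (Benjamini-Hochberg) across 15851 genes that reached 0.1 CPM in 2 or more libraries. With 2 labelled samples a group, each limma p-value sets a group difference against the spread between these mice. That spread was pooled over all 5 groups and moderated toward the trend over all genes. Alternatives were pseudocounts of 0.01, 0.5 and 1, no filter or 1 CPM, median-of-ratios rescaling, a replicate block, no trend, only the groups compared, edgeR 4.0.16 and DESeq2 1.42.0 on the recovered tags, and each mouse left out. All 10 members are named, as are up to 4 called genes a pathway list with the largest absolute logFC and the 3 genes nearest to each called member. The members and lists were chosen with earlier results of these data known. Promoters are from RefSeq (GRCm38.p6), and gene positions from GENCODE vM1 (mm9). Tables were made with pandas 2.3.3 and numpy 2.4.6 in Python 3.11.15, and plots with matplotlib 3.10.9.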

Additional observations from a re-analysis of the deposited data

Results flagged for a closer look

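The effect of SE against pre-SE differed between 6 h and 2 days for 2 of the 10 genes when the difference was tested directly, as SE 2 days against SE 6 h. For *Gadd45b* the effect at 2 days minus that at 6 h was -1.48 (limma adjusted p = 0.048, lower in both SE 2 days mice), and for *Bax* it was 0.93 (limma adjusted p = 0.047, higher in both SE 2 days mice). Both values were at the threshold, and the pre-SE mice cancel from them.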

How the results depend on the processing

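Over the alternatives, the direction and side of the threshold held in 1609 of the values, 77 became weaker, 14 stronger and 50 changed direction, and none of the latter had been called. The number of the 10 genes called higher at 6 h after SE was 4 to 5 when 1 mouse was left out, and at 2 days 2 to 5, where 3 were called without pre-SE replicate 1 or 2 and 2 without SE 2 days replicate 2. Between SE 2 days and SE 6 h the 1 gene called higher became 0 with a pseudocount of 0.01, rescaling, the replicate block, no trend, only the groups compared and both edgeR tests, and the 1 called lower became 0 with pseudocounts of 0.01 and 1, the replicate block, no trend and edgeR's quasi-likelihood test, 3 with DESeq2 and 2 with edgeR's exact test. Each was 0 to 1 with 1 mouse left out. For SE + LEV 6 h against SE 6 h, DESeq2 and edgeR's exact test called 1 gene lower where limma called 0. Over all genes these tests called 69 and 118 lower, and limma 2. Against pre-SE, the 2 genes called in SE + LEV 6 h mice became 1 with only the groups compared and 5 with DESeq2 and edgeR's exact test, with a range of 0 to 3 over mice left out. In SE + LEV 2 days mice the 2 became 1 with a pseudocount of 0.5 and the replicate block, 0 with a pseudocount of 1, rescaling, no trend and only the groups compared, and 0 to 1 with a mouse left out. Leaving out mice of other groups changed calls too, since all groups share 1 estimate of the spread. The cause of the other changes was not tested.

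Replicate numbers pair no animals, and deviations of same-numbered mice correlated between -0.44 and 0.34 across genes in the 7 comparisons of groups. With the replicate block, *Gadd45b* (adjusted p = 0.058) and *Bax* (adjusted p = 0.053) lost their calls between SE 2 days and SE 6 h. Rescaling moved the median logFC of all genes at 6 h from -0.13 to -0.005, and the share of higher genes among all calls between SE 2 days and SE 6 h from 73.9% to 64.0% (54.7% with DESeq2 and 55.7% with edgeR's exact test). Over all genes, calls between SE 2 days and pre-SE were 897 with limma and 1607 with DESeq2. Between SE 2 days and SE 6 h, limma called 176 genes lower, DESeq2 586 and edgeR's exact test 637.

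Among differences that were not called, the direction changed for *Gadd45b* between the LEV effects (0.01 with a pseudocount of 1, and -0.60 to 0.57 over mice left out). For SE + LEV 2 days against SE 2 days it changed for *Mdm2* (-0.02 with rescaling, -0.03 with edgeR's tests, -0.04 with DESeq2) and *Bcl2* (-0.04 with rescaling, -0.07 with edgeR's quasi-likelihood test, -0.06 with DESeq2 and -0.05 with edgeR's exact test). Over mice left out, the logFC of SE 6 h against pre-SE ran from -1.04 to 0.04 for *Bbc3*. That of SE 2 days against pre-SE ran from -0.25 to 0.07 for *Bcl2l11* and -0.17 to 1.14 for *Bcl2*. That of SE 2 days against SE 6 h ran from -0.47 to 0.04 for *Mdm2*, -1.10 to 0.02 for *Bbc3* and -0.76 to 0.33 for *Bcl2*. That of SE + LEV 6 h against SE 6 h ran from -0.40 to 0.21 for *Mdm2*, -0.74 to 0.34 for *Bbc3*, -0.20 to 0.37 for *Bcl2l11* and -0.01 to 0.49 for *Bax*, and at 2 days from -0.19 to 0.26 for *Mdm2*, -0.07 to 0.32 for *Bcl2l11* and -0.59 to 0.62 for *Bcl2*. Against pre-SE, SE + LEV 6 h ran from -0.41 to 0.09 for *Bax* and -0.46 to 0.85 for *Bcl2*, and SE + LEV 2 days from -0.16 to 0.23 for *Bcl2l11* and -0.16 to 1.16 for *Bcl2*. The difference between the LEV effects ran from -0.18 to 0.43 for *Mdm2*, -0.25 to 0.33 for *Bcl2l11* and -0.09 to 1.12 for *Bcl2*. Depth limits *Bcl2*, which rested on 6 to 38 tags.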

Other observations

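In LEV-treated mice, pathway genes that had risen at 6 h and at 2 days after SE stood at different distances from the SE level. At 6 h *Map3k5* was 28.0 and 15.1 CPM in SE + LEV mice against 89.7 and 128 CPM in SE mice (logFC -2.37, limma adjusted p = 0.11, adjusted p from 3.2e-06 to 0.68 over the alternatives), and *Myc* was 15.3 and 16.5 CPM against 10.5 and 21.4 CPM. At 2 days *Btg2* was 17.3 and 19.9 CPM in SE + LEV mice against 129 and 41.1 CPM in SE mice. *Birc5* was 30.4 and 10.3 CPM against 20.2 and 23.6 CPM, *Cdk1* was 14.5 and 5.91 CPM against 9.03 and 11.3 CPM, and *Ccna2* was 15.1 and 5.26 CPM against 8.61 and 15.8 CPM. In *Birc5* and *Cdk1* the 2 SE + LEV 2 days mice lay on either side of the SE 2 days mice, and in *Ccna2* replicate 1 lay between them and replicate 2 below both. Replicate 1 was the higher of its group in each of these 3 genes of dividing cells. That mouse was also the higher of its group in the leukocyte markers (92.2 against 33.8 CPM) and the microglia markers (1140 against 901 CPM) and the lower in the oligodendrocyte markers (2990 against 4390 CPM). Of the 10 members it was the higher in 6, including *Cdkn1a* (33.0 against 21.2 CPM) and *Gadd45g* (53.2 against 26.8 CPM), and the lower in 4, including *Gadd45a* (13.0 against 13.4 CPM) and *Gadd45b* (13.8 against 14.5 CPM), as it was in *Btg2*. The part of cell composition in these values was not tested.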
